A study of Mus musculus with 4 samples.

Results

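Cells of the mouse bone marrow stem and progenitor compartment that carried transcripts of Fos or Fosb at the time of lysis were examined. Fos and Fosb encode subunits of AP-1, a transcription factor made of a Fos-family and a Jun-family protein. They are immediate early genes, which are transcribed within minutes of a signal through the ERK pathway or cAMP, from factors such as SRF and CREB that are already in the cell, and whose transcripts decay fast. The same signals induce genes that end the response, the phosphatase Dusp1 and the mRNA decay factor Zfp36 among them. In haematopoietic stem cells (HSCs) AP-1 and Egr1 are known as regulators of the exit from and the maintenance of quiescence.

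The members were selected on measured values. A cell was kept with at least 1000 genes, at most 10% mitochondrial UMIs (unique molecular identifiers, each counted as 1 transcript copy) and a top hashtag of at least 10 UMIs and at least 3 times the next one. It was called Fos-positive with at least 1 UMI of Mecom, a transcription factor of long-term HSCs, and at least 2 UMIs summed over Fos and Fosb. Of 33042 cells kept, 27272 were Mecom-positive, and 468 of these were Fos-positive. They were compared with the 25254 Mecom-positive cells without a UMI of either gene, called Fos-zero, and the 1550 cells with 1 UMI were left between. The values of Fos, Fosb and Mecom chose the members and are given as a description, with no test.

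The cells came from bone marrow of 2 male mice, 3 months old, of the genotype Tppp3CreER LSLTdTomato, in which tamoxifen given at postnatal days 0 and 3 allowed a Cre recombinase driven by the Tppp3 gene to switch on a tdTomato reporter for good, and every group carried both alleles and the tamoxifen. Lin-Sca+Kit+ cells of each mouse were sorted by tdTomato into 2 tubes, one positive and one negative, which makes 4 tubes, each tagged with its own hashtag antibody. A portion of every tube went into a GEM-X library and another into a v3.1 library, both droplet chemistries of 10x Genomics. Both tubes of a mouse come from 1 animal, so the tdTomato gates rest on 2 mice and the Fos-positive against Fos-zero comparison on 4 tubes of those 2 mice. No cell barcode was shared by the 2 libraries.

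Fos (mm10, chromosome 12, 85473890 to 85477273, plus strand) was detected in 4.66% of Mecom-positive cells and Fosb (chromosome 7, 19302696 to 19310051, minus strand) in 3.38%. The 468 Fos-positive cells, which are 1.72% of the Mecom-positive cells, held 43.0% of all Fos UMIs and 45.5% of all Fosb UMIs of that population. Among them 178 carried Fos alone, 174 carried both transcripts and 116 carried Fosb alone. Just inside the threshold lay 309 cells with 2 UMIs, 95 cells had 3 UMIs and 64 had 4 or more, up to 11, and just outside it lay the 1550 cells with 1 UMI. Summed per tube, Fos stood at 134.1 and 90.0 CPM (counts of a gene scaled to a common library total) in Fos-positive cells of the tdTomato-positive and tdTomato-negative tubes of mouse 1, and at 172.7 and 140.8 CPM in those of mouse 2. Fosb stood at 87.1 and 83.9 CPM in the same tubes of mouse 1 and at 92.1 and 105.0 CPM in those of mouse 2.

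The rule counts UMIs, and its part in the depth of the cells it picks was not tested. Fos-positive cells were deeper than Fos-zero cells. Their median was 9784 UMIs and 3794.5 genes, against 8461 UMIs and 3471 genes in Fos-zero cells, with 2.14% against 2.17% mitochondrial UMIs. Of the Fos-positive cells 54.3% came from the v3.1 library, against 44.6% of the Fos-zero cells. Summed counts per tube ran from 521279 to 2611009 UMIs in Fos-positive cells and from 25691633 to 108046828 UMIs in Fos-zero cells. Results that move with depth or chemistry are therefore given with those values and within each chemistry. They are also given against Fos-zero cells matched 1 to 1 on UMIs within tube and chemistry. In a further setting, cells of at least 5000 UMIs were thinned at random to 5000 UMIs before their state was called. The 3469 shallower cells, 1176 of GEM-X and 2293 of v3.1, were left out there, and 153 Fos-positive cells remained. Thinned counts set the state only, and the sums hold all UMIs of the cells.

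The stem and progenitor label was set against HSC markers that the rule did not use. Hlf, a transcription factor of HSCs, had a UMI in 89.1% of Fos-positive cells (exact 95% interval 85.9 to 91.8%) and in 89.1% of matched Fos-zero cells (85.9 to 91.8%), against 54.7% of cells without a Mecom UMI. Procr, the endothelial protein C receptor, had one in 26.9% of Fos-positive cells (23.0 to 31.2%), in 26.3% of matched Fos-zero cells (22.4 to 30.5%) and in 7.87% of Mecom-zero cells. Fgd5 was found in 23.3%, 20.7% and 6.499% of the same cells. Kit, the receptor of the sort, was found in 91.9%, 90.6% and 83.6%, and Ly6a, which encodes Sca-1, in 42.3%, 45.7% and 24.5%. Fos-positive cells thus carried HSC markers at shares whose intervals overlap those of Fos-zero cells of the same depth. Median depths of the Fos-positive, matched Fos-zero and Mecom-zero cells were 9784, 9782 and 9003 UMIs. Progenitor genes were detected as well: Flt3, Prtn3 and Mpo had a UMI in 69.7%, 78.4% and 54.5% of Fos-positive cells. In all Fos-zero cells, not matched on depth, the shares were 71.4%, 75.9% and 49.5%. The HSC markers therefore do not make each Fos-positive cell a stem cell. A Mecom UMI was also found in 37.4% of 372 cells of the B lineage, a class that should lack the gene (median depth 12614.5 UMIs), against 83.1% of the other cells (median depth 8592.5 UMIs), so a Mecom UMI marks the stem and progenitor compartment but does not prove expression in a single cell. Intervals cover counting error only.

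**Figure D1:**
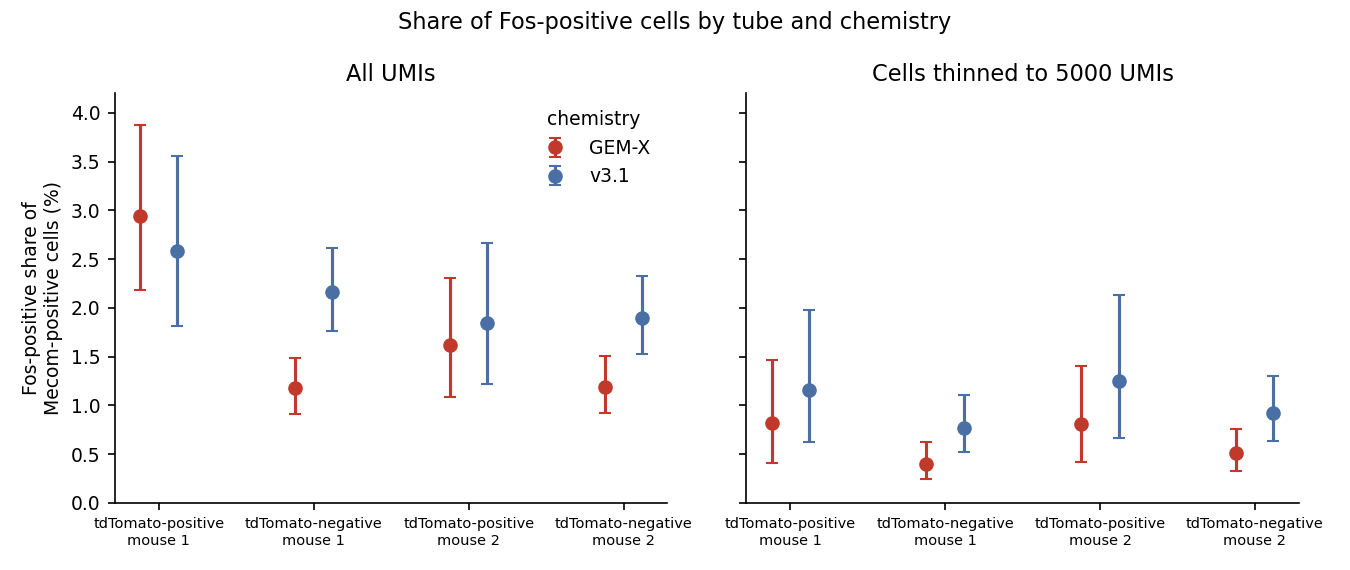
Share of Mecom-positive cells that were Fos-positive (percent, y axis) in each of the 4 tubes (x axis), GEM-X in red and v3.1 in blue, with all UMIs (left) and after thinning cells to 5000 UMIs, without shallower cells (right). Points are shares and bars exact 95% binomial intervals; with all UMIs the highest share is 2.95% and the lowest 1.17%, and after thinning the v3.1 share is above the GEM-X share in all 4 tubes.

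The share of Fos-positive cells was compared between the tdTomato gates and between the chemistries. In mouse 1, 2.78% of tdTomato-positive Mecom-positive cells were Fos-positive (85 of 3057, exact 95% interval 2.23 to 3.43%), against 1.62% of tdTomato-negative ones (170 of 10517, 1.38 to 1.88%). In mouse 2 the shares were 1.72% of tdTomato-positive cells (56 of 3262, 1.30 to 2.22%) and 1.504% of tdTomato-negative cells (157 of 10436, 1.28 to 1.76%). The gate difference was 1.16 percentage points in mouse 1 and 0.21 in mouse 2, a mean of 0.69 ± 0.67 (SD, n = 2 mice), and 2 mice cannot give a p below 0.5 in an exact two-sided sign-flip permutation test, the value found. After thinning, the tdTomato-positive share was 0.974% (0.625 to 1.45%), against 0.565% (0.417 to 0.749%) of tdTomato-negative cells, in mouse 1. In mouse 2 it was 0.990% (0.642 to 1.46%), against 0.684% (0.517 to 0.887%), so that the differences were 0.41 and 0.31 percentage points. The positive gate was the higher one in both mice at both depths, and the intervals overlapped in all of these pairs except mouse 1 with all UMIs. With 3 or more Fos and Fosb UMIs the difference was 0.45 percentage points in mouse 1 and -0.06 in mouse 2, and with v3.1 alone 0.42 and -0.05, so the sign in mouse 2 was not stable.

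By chemistry, GEM-X gave the higher share in the tdTomato-positive tube of mouse 1 by 0.36 percentage points, and v3.1 gave the higher share in the other 3 tubes, by 0.23 to 0.99. The mean difference, GEM-X minus v3.1, was -0.39 ± 0.59 percentage points (SD, n = 4 tubes; exact two-sided sign-flip permutation p = 0.375, where 4 tubes allow no less than 0.13). After thinning the difference was -0.39 ± 0.05, of 1 sign in all 4 tubes, at the smallest p that this permutation test allows, 0.13. Each chemistry was 1 library that held all 4 tubes, so the spread between libraries was not measured. Cells without a Mecom UMI were Fos-positive in 1.58% of cases (91 of 5770, 1.27 to 1.93%), against 1.72% (1.57 to 1.88%) of Mecom-positive cells, and B-lineage cells in 7 of 372 (0.760 to 3.84%), so in the pooled cells no difference between Mecom-positive and Mecom-zero cells was detectable at this depth. By tube the signs differed. In the tdTomato-positive tubes of mice 1 and 2 the share was 2.78% and 1.72% of Mecom-positive cells, against 3.32% and 2.20% of Mecom-zero cells. In the tdTomato-negative tubes it was 1.62% and 1.504% of Mecom-positive cells, against 1.29% and 0.951% of Mecom-zero cells.

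Against Fos-zero cells, Fos-positive cells carried more transcripts of the AP-1 partners Jun, Jund and Junb, of Egr1, and of the feedback genes Dusp1, Zfp36 and Btg2. Of 13580 genes tested, 35 rose (0.258% of the genes tested) and 26 fell (0.191%) in edgeR's quasi-likelihood test, run on sums per tube with a block for the tube, at a Benjamini-Hochberg adjusted p under 0.05. Fos, Fosb and Mecom were left out of the test. The median log2 fold change over all genes was -0.01. SEs come from that model, in which genes share information on their spread, and p-values measure only the spread between the tubes of 2 mice. In the sums of the 4 tubes, 22 of the 35 risen and 10 of the 26 fallen genes did not overlap between the states. These genes were called on the same sums, and the share without overlap over all tested genes was not taken. The overlap counts therefore add no support to the calls. With sums kept apart by tube and chemistry, 15 of the 35 risen and 10 of the 26 fallen genes passed again. Against as many Fos-zero cells matched on UMIs, 7 of the 31 risen genes that could be tested passed, and 1 of the 21 fallen ones. The matched Fos-zero cells hold 5771683 UMIs, against 249546470 UMIs in all Fos-zero cells, so that fit has fewer counts. A gene that did not pass there is not thereby shown to be unchanged, and the part of the lower counts was not tested. With GEM-X alone 26 of 12590 genes rose (0.207%) and 10 fell (0.0794%), and with v3.1 alone 57 of 12352 rose (0.461%) and 44 fell (0.356%). The number of calls was 107 without the tdTomato-positive tube of mouse 1, 19 without that of mouse 2 and 37 without the tdTomato-negative tube of mouse 2. Among the named genes that passed, Jun, Jund, Egr1, Auts2, Dennd4a and Jarid2 passed whichever tube was left out.

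Jun (ENSMUSG00000052684; mm10, chromosome 4, 95049034 to 95052222, minus strand) encodes the main partner of Fos in AP-1. It stood at 187.7, 137.9, 184.2 and 146.3 CPM in Fos-positive cells of the tdTomato-positive and tdTomato-negative tubes of mouse 1 and then of mouse 2, the order kept below, against 76.7, 62.1, 63.0 and 55.1 CPM in Fos-zero cells of the same tubes. Every Fos-positive sum lay above every Fos-zero sum. Jun rose 2.46-fold (log2 fold change 1.30 ± 0.07, SE, n = 4 tubes, edgeR adjusted p = 5.00e-21). It passed in 22 of 22 alternatives that give an adjusted p, between 0.84 when 1 Fos or Fosb UMI sufficed and 2.25 with thinned and matched cells. A Jun UMI was found in 67.7% (63.3 to 72.0%) of Fos-positive cells and in 34.6% (30.3 to 39.1%) of matched Fos-zero cells. One Fos-positive cell held 58 of the 889 Jun UMIs. Jun rose by 1.61 on the log2 scale with GEM-X and by 0.94 with v3.1, and this difference passed its test (0.65 ± 0.12, edgeR adjusted p = 0.00133).

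Jund, an AP-1 subunit that many cells express without a signal, stood at 138.9, 150.9, 159.2 and 129.7 CPM in Fos-positive cells, against 88.5, 84.0, 86.3 and 86.9 CPM in Fos-zero cells. The groups did not overlap. It rose 1.66-fold (log2 fold change 0.73 ± 0.07, edgeR adjusted p = 3.46e-11) and passed in 22 of 22 alternatives. Junb, a Jun protein that is itself an immediate early gene, stood at 31.6, 37.5, 36.5 and 47.5 CPM in Fos-positive cells, against 27.3, 27.1, 28.9 and 27.2 CPM in Fos-zero cells, again with no overlap, and rose by 0.51 ± 0.12 (adjusted p = 0.019). It rose by 0.80 with GEM-X alone (adjusted p = 0.00249) and lay at 0.16 with v3.1 alone (adjusted p = 0.907), and it did not pass with sums kept apart by tube and chemistry (adjusted p = 0.189). It did not pass against matched Fos-zero cells (0.48, adjusted p = 0.255), and lay at 0.53, 0.53 and 0.37 without passing when the tdTomato-negative tube of mouse 1, the tdTomato-positive tube of mouse 2 or the tdTomato-negative tube of mouse 2 was left out. The 3 other tested subunits, Batf, Maff and Fosl2, lay at 0.07, -0.09 and -0.16 and did not pass, and Atf3 had no UMI in Fos-positive cells. Of the AP-1 list 3 of 6 tested members rose and none fell, and the median was 0.29.

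Egr1 (ENSMUSG00000038418; mm10, chromosome 18, 34859823 to 34864984, plus strand), a zinc finger factor and SRF target, stood at 24.9, 16.5, 24.9 and 32.7 CPM in Fos-positive cells, against 12.3, 8.88, 13.2 and 11.4 CPM in Fos-zero cells. No Fos-positive sum fell among the Fos-zero sums. Egr1 rose 2.18-fold (log2 fold change 1.12 ± 0.16, edgeR adjusted p = 1.57e-05), by 1.16 with GEM-X and 1.12 with v3.1. Against matched Fos-zero cells the change was 0.87 (adjusted p = 0.0821). An Egr1 UMI was found in 14.7% (11.7 to 18.3%) of Fos-positive cells and in 10.3% (7.66 to 13.4%) of matched Fos-zero cells. One Fos-positive cell held 26 of the 135 Egr1 UMIs and 10 cells held 46.7%.

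The other immediate early factors did not pass the test. Ier2, a nuclear early protein, stood at 48.8, 57.5, 42.2 and 72.8 CPM in Fos-positive cells, against 48.5, 49.2, 55.1 and 53.9 CPM in Fos-zero cells, with overlapping groups (log2 fold change 0.19 ± 0.09, edgeR adjusted p = 0.624). Klf6, a zinc finger factor, averaged 28.3 ± 3.41 CPM in Fos-positive cells and 22.4 ± 0.748 CPM in Fos-zero cells (0.30 ± 0.13, adjusted p = 0.562). Myc, which drives growth genes, averaged 147.5 ± 6.44 CPM in Fos-positive cells and 154.6 ± 2.30 CPM in Fos-zero cells (-0.08 ± 0.06, adjusted p = 0.81). Nr4a1, an orphan nuclear receptor, stood at 0.958, 3.06, 5.75 and 13.0 CPM in Fos-positive cells, against 3.18, 3.29, 3.31 and 3.33 CPM in Fos-zero cells (0.78 ± 0.35, adjusted p = 0.592). It was high in 1 tube, tdTomato-negative of mouse 2. Ier5, Nr4a2, Klf2, Klf4, Klf10, Csrnp1 and Srf lay between -0.05 for Nr4a2 and 1.12 for Klf4, which was near 1 CPM. Of this list 1 of 12 tested members rose and none fell, with a median of 0.25, and Egr2 had no UMI in Fos-positive cells.

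**Figure D2:**
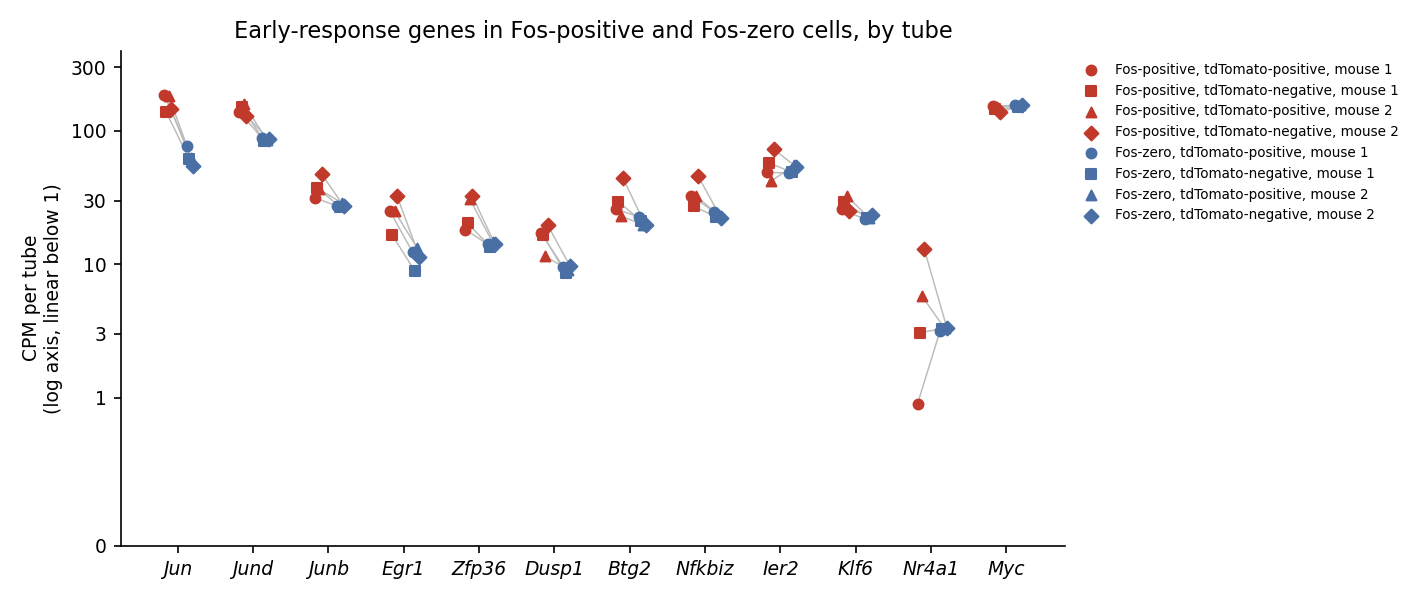
Level per tube (CPM, y axis, logarithmic above 1) of 12 early-response genes (x axis) in Fos-positive cells (red, left) and Fos-zero cells (blue, right), with a marker shape per tube and a grey line joining the states of a tube. Jun, Jund, Junb, Egr1, Zfp36, Dusp1, Btg2, Nfkbiz and Klf6 are higher in Fos-positive cells of all 4 tubes, while Ier2 and Nr4a1 cross and Myc is lower in all 4.

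Of 18 tested feedback genes 3 rose, Zfp36, Dusp1 and Btg2. Zfp36, which marks AU-rich mRNAs such as that of Fos for decay, stood at 18.2, 20.3, 30.7 and 32.7 CPM in Fos-positive cells, against 14.1, 13.5, 14.6 and 14.2 CPM in Fos-zero cells (log2 fold change 0.81 ± 0.16, edgeR adjusted p = 0.00216). Dusp1, a phosphatase of ERK, p38 and JNK, stood at 17.2, 16.5, 11.5 and 19.8 CPM in Fos-positive cells, against 9.53, 8.57, 9.11 and 9.63 CPM in Fos-zero cells (0.89 ± 0.18, adjusted p = 0.00464). Btg2, an antiproliferative cofactor of mRNA deadenylation, stood at 25.9, 29.5, 23.0 and 44.5 CPM in Fos-positive cells, against 22.8, 21.2, 19.8 and 19.6 CPM in Fos-zero cells (0.62 ± 0.14, adjusted p = 0.0135). None of the 3 overlapped between the states. Without the tdTomato-negative tube of mouse 2 they lay at 0.62, 0.83 and 0.35 and did not pass; without the tdTomato-positive tube of mouse 2 Zfp36 and Btg2, and without the tdTomato-negative tube of mouse 1 Dusp1, did not pass (0.78, 0.67 and 0.86). Against matched Fos-zero cells the 3 genes lay at 0.72, 0.64 and 0.65, with adjusted p of 0.18, 0.347 and 0.12 in edgeR. With GEM-X alone they lay at 1.12, 1.02 and 0.85 (adjusted p = 2.52e-04, 0.101 and 0.00138). With v3.1 alone they lay at 0.45, 0.70 and 0.37, and none of the 16 tested members passed (adjusted p of the 3 in edgeR 0.658, 0.231 and 0.665). One Fos-positive cell held 39 of the 188 Btg2 UMIs, and one held 19 of the 141 Zfp36 UMIs. No member of this list fell, and its median was 0.07.

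No gene of the signalling steps above Fos passed. Of 17 tested genes of SRF, CREB and ERK signalling 10 had a positive sign, and the median was 0.01. Of the 15 NF-kB and stress genes tested Nfkbiz alone passed. Nfkbiz, an inducible NF-kB cofactor, stood at 32.6, 27.2, 32.6 and 45.7 CPM in Fos-positive cells, against 24.7, 22.7, 23.3 and 22.4 CPM in Fos-zero cells, with no overlap (0.56 ± 0.13, edgeR adjusted p = 0.0232). It rose by 0.97 against matched Fos-zero cells (adjusted p = 0.0217), lay at 0.14 with v3.1 alone, and lay at 0.57 and 0.34 without passing when the tdTomato-positive or the tdTomato-negative tube of mouse 2 was left out. None of 9 tested heat shock genes passed (median -0.03), Hspa8 and Hsp90ab1 lying at -0.02 and -0.01, and Hspa1a and Hspb1 had no UMI in Fos-positive cells.

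Promoter windows of Fos and Fosb, whose UMIs set the states apart, and of the 3 feedback genes that rose with them are shown. Each is 300 bases, 250 before to 50 after the start in RefSeq (build GRCm38.p6, the assembly of mm10), 5′ to 3′ on the strand of the gene. Capitals mark matches, on either strand, to the CArG box bound by SRF, to TGACG, the short form of the CREB site, and to TGANTCA, a form of the AP-1 site that allows any middle base.
Fos, chr12:85473640-85473939, plus strand: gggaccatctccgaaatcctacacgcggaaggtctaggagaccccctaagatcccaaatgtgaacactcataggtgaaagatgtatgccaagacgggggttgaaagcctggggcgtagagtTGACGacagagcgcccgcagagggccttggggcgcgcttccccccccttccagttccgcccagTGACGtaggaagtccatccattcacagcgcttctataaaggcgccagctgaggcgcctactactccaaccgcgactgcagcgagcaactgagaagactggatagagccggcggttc
Fosb, chr7:19309996-19310295, minus strand: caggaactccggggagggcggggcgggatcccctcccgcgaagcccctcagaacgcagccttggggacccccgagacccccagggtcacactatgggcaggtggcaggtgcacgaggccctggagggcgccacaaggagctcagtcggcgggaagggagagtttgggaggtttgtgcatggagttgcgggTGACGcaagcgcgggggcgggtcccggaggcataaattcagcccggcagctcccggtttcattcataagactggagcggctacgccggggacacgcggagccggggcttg
Zfp36, chr7:28379179-28379478, minus strand: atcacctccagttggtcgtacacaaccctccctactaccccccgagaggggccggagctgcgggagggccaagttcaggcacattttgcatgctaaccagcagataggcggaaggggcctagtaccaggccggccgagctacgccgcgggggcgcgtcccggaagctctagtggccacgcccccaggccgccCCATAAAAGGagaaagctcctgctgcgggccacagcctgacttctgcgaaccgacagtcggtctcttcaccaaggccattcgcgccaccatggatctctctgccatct
Dusp1, chr17:26508423-26508722, minus strand: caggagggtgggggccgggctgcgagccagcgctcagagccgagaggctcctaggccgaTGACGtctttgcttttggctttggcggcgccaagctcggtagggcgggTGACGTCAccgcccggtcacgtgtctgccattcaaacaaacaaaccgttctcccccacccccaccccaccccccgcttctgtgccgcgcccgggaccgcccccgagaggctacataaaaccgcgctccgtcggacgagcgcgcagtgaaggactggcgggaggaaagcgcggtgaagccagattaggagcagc
Btg2, chr1:134079106-134079405, minus strand: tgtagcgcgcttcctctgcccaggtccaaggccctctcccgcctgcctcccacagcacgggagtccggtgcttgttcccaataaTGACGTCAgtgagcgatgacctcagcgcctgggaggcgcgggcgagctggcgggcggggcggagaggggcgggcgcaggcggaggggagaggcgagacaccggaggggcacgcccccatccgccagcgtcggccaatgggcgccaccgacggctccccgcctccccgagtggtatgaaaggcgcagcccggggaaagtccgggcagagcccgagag

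TGACG matched 2 times in the Fos window, 1 time in that of Fosb, 3 times in that of Dusp1 and 2 times in that of Btg2. In Dusp1 and Btg2 a pair of these matches, one on each strand, overlap and make up the full site TGACGTCA, which 1.88% of 27025 mouse promoter windows hold, against 21.0% for TGACG. The Zfp36 window held 1 CArG box, which 1.57% of windows hold. TGANTCA, in 7.93% of windows, and GCGTGGGCG, an Egr1 site in 0.625% of windows, were in none of the 5 windows. The window of Jun held none of the motifs, and that of Junb held 1 match to TGACG and none to the others. Only exact matches were counted. The Jun window holds TGACATCA, which differs from TGACGTCA by 1 base and was therefore not counted. A match is a string of letters, not a bound site. Sequence outside the windows was not searched, so a window without a match does not mean that the gene lacks the site.

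Levels of the early genes were also set out by the number of Fos and Fosb UMIs. Jun averaged 64.2 ± 9.06, 103.8 ± 36.6, 133.4 ± 40.3 and 227.1 ± 35.1 CPM in cells with 0, 1, 2 and 3 or more of these UMIs (SD, n = 4 tubes). Jund averaged 86.4 ± 1.89, 119.1 ± 5.29, 128.3 ± 17.8 and 183.6 ± 62.1 CPM over the same classes. Egr1 averaged 11.5 ± 1.87, 17.8 ± 4.52, 17.9 ± 2.69 and 38.3 ± 16.9 CPM. Cells just outside the threshold, with 1 UMI, had mean levels above Fos-zero cells for these 3 genes and at or below those just inside it. The other risen early genes were not all ordered this way. Junb averaged 27.6 ± 0.851, 34.4 ± 5.07, 31.7 ± 1.69 and 51.7 ± 19.9 CPM over the classes, and Btg2 20.9 ± 1.47, 27.4 ± 3.89, 23.6 ± 3.098 and 43.9 ± 34.2 CPM, both lower with 2 UMIs than with 1. Dusp1 averaged 9.21 ± 0.481, 13.2 ± 3.31, 16.1 ± 3.56 and 16.1 ± 13.6 CPM and Zfp36 14.1 ± 0.449, 18.1 ± 0.819, 18.6 ± 9.55 and 38.2 ± 17.4 CPM, with spreads in the highest class that reached those of the class below. Hlf averaged 467.4 ± 40.8, 424.9 ± 46.5, 453.7 ± 53.4 and 430.2 ± 66.3 CPM, with overlapping spreads. The classes differ in depth, and no test was made over them.

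**Figure D3:**
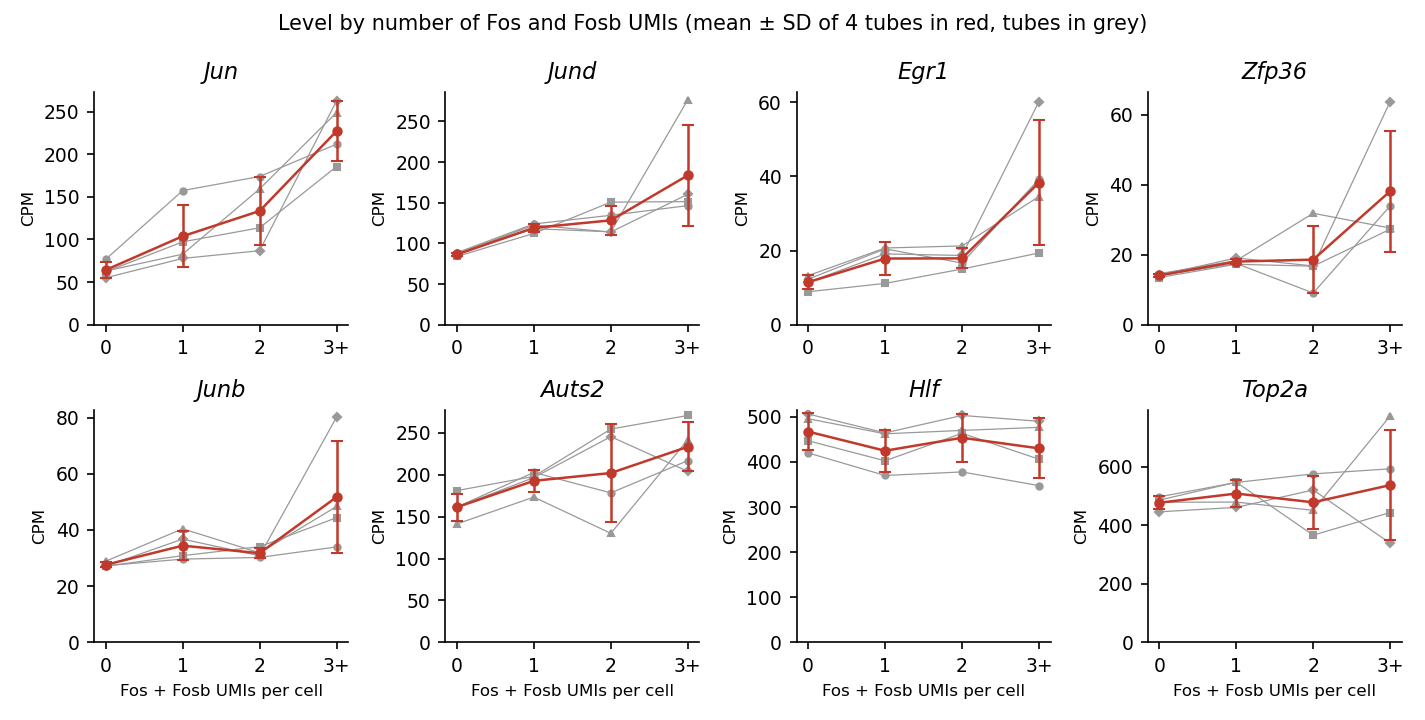
Level (CPM, y axes) of 8 genes in Mecom-positive cells with 0, 1, 2 and 3 or more UMIs summed over Fos and Fosb (x axes), as mean ± SD of 4 tubes in red and each tube in grey. Jun averages 64.2 CPM in the lowest class and 227.1 CPM in the highest, while the levels of Hlf and Top2a overlap over the 4 classes.

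Some genes outside the early response rose as well. Auts2, a gene tied to transcription by Polycomb complexes, stood at 192.5, 260.1, 161.1 and 231.5 CPM in Fos-positive cells, against 161.5, 181.1, 141.3 and 161.4 CPM in Fos-zero cells (log2 fold change 0.42 ± 0.06, edgeR adjusted p = 4.64e-06), higher within each tube though the groups overlap. Against matched Fos-zero cells it lay at 0.36 (adjusted p = 0.117). With GEM-X alone its change was 0.17 (adjusted p = 0.87). Dennd4a, a regulator of Rab GTPases, rose by 0.37 ± 0.07 (adjusted p = 8.10e-04), with no overlap between the states. Slc7a8, an amino acid transporter, rose by 0.48 ± 0.11 (adjusted p = 0.025), and Tex14, known for intercellular bridges of germ cells, rose by 0.91 ± 0.21 (adjusted p = 0.0228) to a mean of 12.8 ± 1.69 CPM in Fos-positive cells, against 6.85 ± 0.999 CPM in Fos-zero cells. Without the tdTomato-negative tube of mouse 1, the tdTomato-positive tube of mouse 2 or the tdTomato-negative tube of mouse 2, Slc7a8 lay at 0.45, 0.51 and 0.52 and Tex14 at 0.77, 0.89 and 1.03, and neither passed. Dennd4a, Slc7a8 and Tex14 lay at 0.40, 0.69 and 1.19 against matched Fos-zero cells, with adjusted p of 0.0558, 0.0604 and 0.146 in edgeR. Of the 35 risen genes 8 were histone genes: Hist2h4, H2afz, H1fx, H2afx, H2afv, H3f3b, Hist1h3d and Hist1h2ac. Of the 26 fallen ones 6 were: Hist1h4h, Hist1h1d, Hist1h4d, Hist1h1e, Hist1h1c and Hist1h1a. Some histone genes are near-identical copies among which reads may be split, but not all of these are. The share of histone genes over all tested genes was not taken.

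No HSC gene passed. Of 15 tested, 10 had a positive and 5 a negative sign, with a median of 0.04. Meis1, a homeobox factor of HSCs, averaged 1000 ± 137.6 CPM in Fos-positive cells and 900.9 ± 94.1 CPM in Fos-zero cells (0.14 ± 0.04, edgeR adjusted p = 0.0665), higher in all 4 tubes, and it passed against matched Fos-zero cells (0.21, adjusted p = 0.0217). Hlf averaged 445.5 ± 56.99 CPM in Fos-positive cells and 467.4 ± 40.8 CPM in Fos-zero cells (-0.07 ± 0.04, adjusted p = 0.733). Among 9 tested multipotent and lymphoid-primed genes Flt3 fell and the median was -0.13. Flt3, the receptor that marks multipotent progenitors, stood at 233.7, 320.9, 211.0 and 216.7 CPM in Fos-positive cells, against 323.9, 341.1, 258.9 and 263.8 CPM in Fos-zero cells (-0.26 ± 0.05, adjusted p = 0.00564), lower within each tube. It lay at -0.27 against matched Fos-zero cells (adjusted p = 0.0698) and at -0.13 with v3.1 alone (adjusted p = 0.697). It lay at -0.19, -0.25 and -0.25 without passing when the tdTomato-positive tube of mouse 1, that of mouse 2 or the tdTomato-negative tube of mouse 2 was left out. None of 14 quiescence genes and none of 14 glycolysis genes passed; Txnip lay at -0.10, and Gapdh and Ldha at 0.14 and 0.02.

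Among the genes that fell, Klf3, a repressor of the Krüppel family, stood at 38.3, 37.9, 24.9 and 38.9 CPM in Fos-positive cells, against 52.6, 54.4, 47.1 and 50.7 CPM in Fos-zero cells, with no overlap (-0.51 ± 0.10, edgeR adjusted p = 0.0045). Without the tdTomato-negative tube of mouse 1 or the tdTomato-positive tube of mouse 2 it lay at -0.50 and -0.47 and did not pass, nor did it pass against matched Fos-zero cells (-0.50, adjusted p = 0.129). Jarid2, a Polycomb cofactor, fell by 0.38 (SE 0.06, adjusted p = 3.06e-05), but lay at -0.18 against matched Fos-zero cells (adjusted p = 0.477) and at -0.20 with v3.1 alone (adjusted p = 0.665). Iigp1, an interferon-induced GTPase, fell by 0.62 (SE 0.14, adjusted p = 0.0219), alone among 14 tested interferon genes, and lay at -0.50, -0.68 and -0.58 without passing when the tdTomato-positive or the tdTomato-negative tube of mouse 1 or the tdTomato-positive tube of mouse 2 was left out. Mybbp1a, Eif4g2, mt-Nd5 and mt-Co1 fell by 0.28, 0.22, 0.19 and 0.11, and none of these 4 passed without the tdTomato-positive or without the tdTomato-negative tube of mouse 2.

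Markers of other cell types were measured in the same sums. S100a9, a neutrophil granule gene, stood at 4.79, 4.98, 3.84 and 2.47 CPM in Fos-positive cells, against 3.49, 31.02, 3.70 and 8.19 CPM in Fos-zero cells, and only the Fos-zero cells of the tdTomato-negative tubes stood apart. All 4 tested neutrophil genes fell, with log2 fold changes of -1.59 for S100a8, -1.99 for S100a9, -2.07 for Camp and -2.75 for Ngp. In Fos-zero cells 10 of 25254 cells held 81.5% of the S100a9 UMIs, and none of the 4 genes passed without the tdTomato-negative tube of mouse 1, where S100a8 lay at 0.29. The neutrophil markers summed to 11.5 to 15.3 CPM in Fos-positive cells and to 9.30 to 91.4 CPM in Fos-zero cells, with Retnlg at 0 in Fos-positive cells. Ebf1, a B-cell factor, fell by 2.07 (SE 0.39, edgeR adjusted p = 0.00202), with 11 UMIs in 6 Fos-positive cells, and did not pass without the tdTomato-positive or without the tdTomato-negative tube of mouse 2 (-2.05 and -1.17). The B-cell markers summed to 13.4 to 31.4 CPM in Fos-positive cells and to 30.4 to 52.3 CPM in Fos-zero cells, with Pax5 at 0 in Fos-positive cells.

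Pf4, platelet factor 4, stood at 36.4, 19.1, 7.67 and 21.6 CPM in Fos-positive cells, against 77.9, 23.4, 32.2 and 34.5 CPM in Fos-zero cells, lower within each tube (-0.77 ± 0.14, edgeR adjusted p = 8.10e-04). It alone of 13 tested megakaryocyte-platelet genes passed, 10 Fos-positive cells held 53.5% of its UMIs, it lay at -0.15 against matched Fos-zero cells (adjusted p = 0.934), and it did not pass without the tdTomato-positive tube of mouse 2 (-0.69). Cd74, the invariant chain of MHC class II, fell by 0.57 (SE 0.12, adjusted p = 0.00506), alone among 7 tested genes of that group. It lay at -0.11 against matched cells (adjusted p = 0.936) and did not pass without the tdTomato-positive tube of mouse 2 (-0.54). The class II list summed to 220.6 to 271.5 CPM in Fos-positive cells and to 280.7 to 298.9 CPM in Fos-zero cells. With all UMIs and both chemistries, no tested gene of the granulocyte-monocyte, erythroid, T and NK cell, macrophage-dendritic or endothelial-stromal lists passed. Mpo, Tfrc, Nkg7, Itgax and Kdr lay at -0.03, -0.09, 0.06, -0.01 and 0.57 there. Of 10 granulocyte-monocyte genes tested in each chemistry, 6 fell with v3.1 alone and 2 rose with GEM-X alone (medians -0.44 and 0.31). Against matched Fos-zero cells 2 of 6 tested fell, and 3 of 10 fell with the state called after thinning. Of the erythroid genes, 2 of 9 tested fell with v3.1 alone and 1 of 4 rose with GEM-X alone. The part of other cell types in the differences above was not tested.

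**Figure D4:**
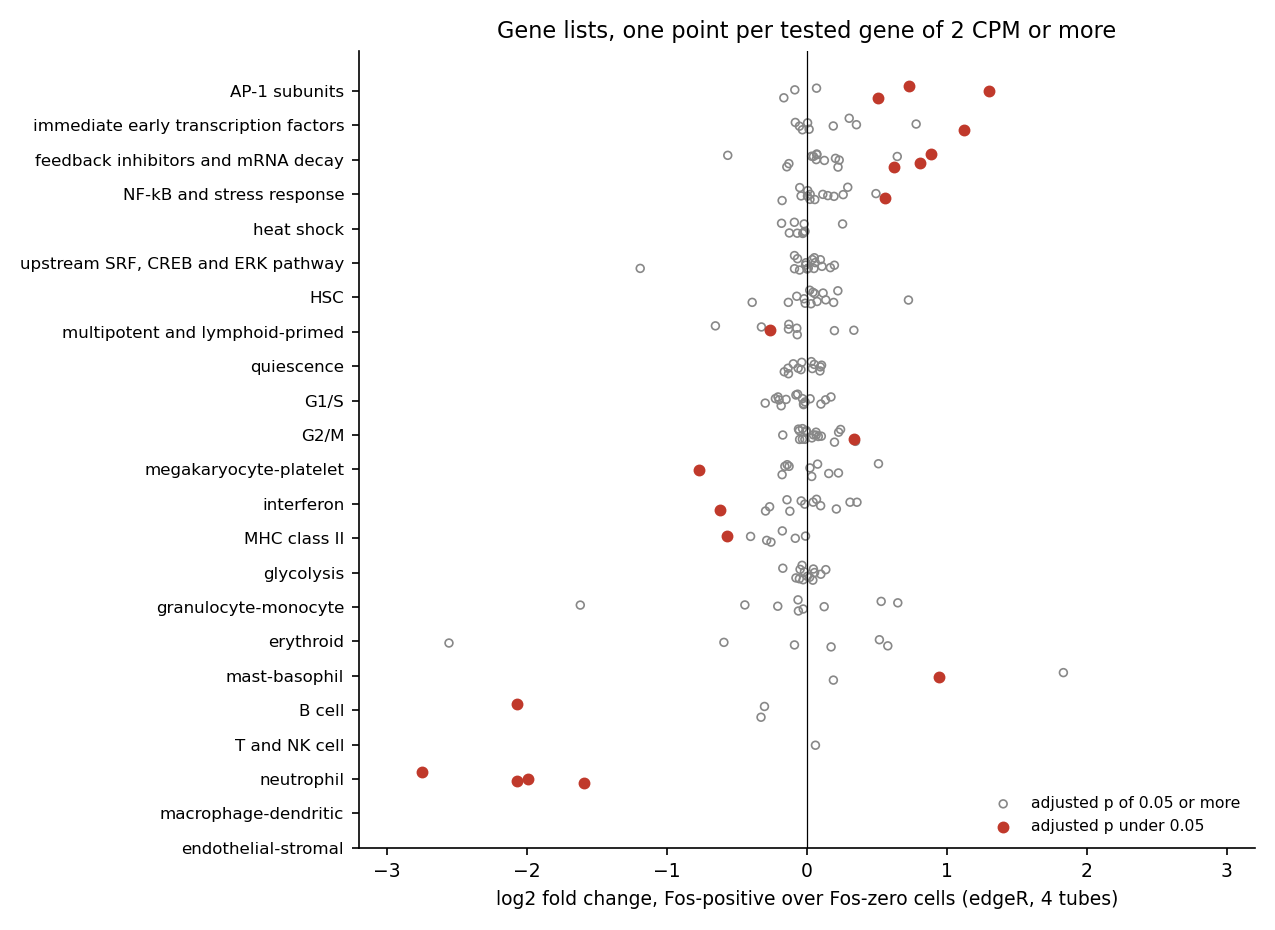
Log2 fold change of Fos-positive over Fos-zero cells (x axis) for the tested genes of 23 lists (y axis), one point per gene with a mean of 2 CPM or more in either state; filled red points have an edgeR adjusted p under 0.05. The AP-1, immediate early, feedback and NF-kB lists hold red points on the right, up to 1.30 for Jun, and the neutrophil and B-cell lists hold red points on the left; 2 lists have no gene of that level.

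Cell cycle genes depended on how depth was treated and on the chemistry. With all UMIs and both chemistries, 1 of 20 tested G2/M genes passed, Birc5 (0.33 ± 0.07, edgeR adjusted p = 0.0112), which lay at -0.17 with GEM-X alone. The list median was 0.04, and Mki67 and Top2a, markers of dividing cells, lay at -0.06 and 0.00. With v3.1 alone 8 of the 20 rose, against 0.461% of all genes tested, and the median was 0.33. With GEM-X alone 0 of the 20 passed, and the median was -0.18. When the state was called on cells thinned to 5000 UMIs, 19 of the 20 fell, against 2.2% of all genes tested, and the median was -1.53. In that setting Mki67 stood at 167.8, 174.9, 48.3 and 62.5 CPM in Fos-positive cells, against 404.7, 400.1, 429.1 and 391.97 CPM in Fos-zero cells (-1.83 ± 0.11, adjusted p = 3.25e-56). Top2a stood at 192.4, 267.0, 96.6 and 118.1 CPM in Fos-positive cells, against 461.9, 465.9, 475.1 and 433.9 CPM in Fos-zero cells (-1.43 ± 0.10, adjusted p = 7.40e-43). Neither overlapped between the states. Cells called Fos-positive this way had a median of 7395 UMIs before thinning, against 8745.5 UMIs in the Fos-zero cells. With Fos-zero cells matched on UMIs as well, 8 G2/M genes could be tested, their median was -0.45 and none passed, and matching without thinning gave a median of -0.08 over 20 genes. Of 16 tested G1/S genes none passed with all UMIs (median -0.05) and 5 fell with the state called at 5000 UMIs.

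With the state called at 5000 UMIs, 71 of 13096 genes rose (0.542%) and 288 fell. Jun rose by 1.80 ± 0.12, Egr1 by 1.94 ± 0.27, Zfp36 by 1.55 ± 0.26 and Jund by 1.13 ± 0.12 on the log2 scale, with adjusted p of 7.94e-50, 2.19e-10, 1.03e-06 and 5.77e-18 in edgeR. Egr1 stood at 45.0, 25.3, 26.8 and 81.1 CPM in Fos-positive cells, against 14.3, 9.42, 13.1 and 11.5 CPM in Fos-zero cells. Zfp36 stood at 36.8, 29.9, 26.8 and 71.8 CPM, against 14.6, 14.2, 14.4 and 14.3 CPM. Both were highest in the tdTomato-negative tube of mouse 2, and these sums rest on few UMIs. Nr4a1 also passed (2.09 ± 0.48, adjusted p = 0.00105), at 4.09, 4.60, 5.37 and 34.7 CPM in Fos-positive cells against 3.102, 3.43, 2.88 and 3.42 CPM in Fos-zero cells, where the value in each tdTomato-positive tube stands for 1 UMI and the tdTomato-negative tube of mouse 2 was the highest. Meis1 rose by 0.28 ± 0.06 (adjusted p = 4.78e-04), while Flt3 fell by 0.39 (adjusted p = 0.00477) and Mpo, a granule enzyme of granulocyte-monocyte progenitors, fell by 0.64 (adjusted p = 2.01e-06). Matched on UMIs without thinning, 13 of 10019 genes rose (0.13%) and 12 fell (0.12%), with Jun (1.52), Jund (0.72), Nfkbiz and Meis1 among the risen. With thinning and matching together 3 genes passed, Jun (2.25), Jund (0.92) and Nfkbiz (2.13).

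**Figure D5:**
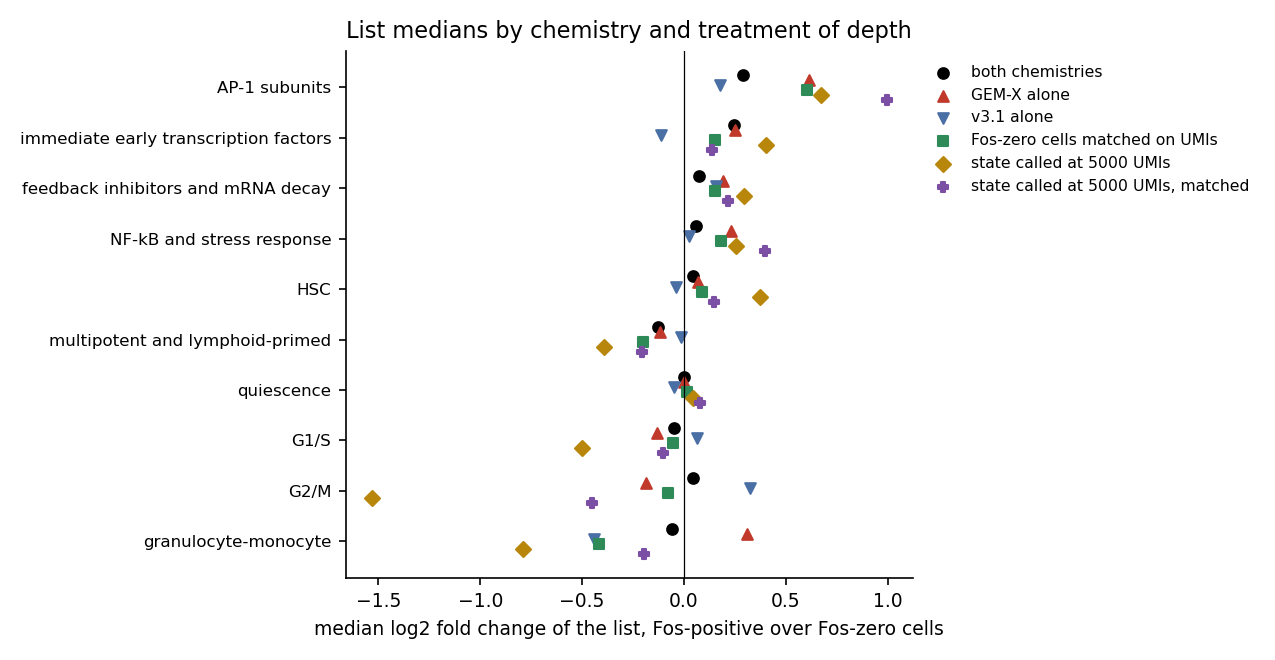
Median log2 fold change of Fos-positive over Fos-zero cells (x axis) for 10 gene lists (y axis), with a marker per setting: both chemistries, each chemistry alone, Fos-zero cells matched on UMIs, state called at 5000 UMIs, and both of these. The AP-1 and feedback lists lie right of 0 in all 6 settings, whereas G2/M lies on both sides, with a median of -1.53 when state was called at 5000 UMIs and 0.33 with v3.1 alone. The tested members change with the setting, so medians are not over the same genes. With both chemistries 6 AP-1 and 18 feedback genes were tested, and against matched Fos-zero cells 4 and 12.

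The chemistries were compared by the difference of the Fos-positive effect, GEM-X minus v3.1, over 4 tubes. Each chemistry was 1 library that held all 4 tubes, so chemistry, library and Cell Ranger version cannot be told apart here. The p-values measure the spread between tubes and not between libraries. Of 12169 genes, 13 were higher in the GEM-X effect (0.107%) and 40 lower (0.329%); 22 passed without the tdTomato-negative tube of mouse 1 and 31 without the tdTomato-positive tube of mouse 2. Genes of granulocyte-monocyte progenitors were on the first side, 5 of 9 tested passing: Mpo lay at 0.29 with GEM-X and at -0.38 with v3.1 (difference 0.66 ± 0.11, edgeR adjusted p = 4.28e-05), and Ms4a3 and Ctsg differed by 2.04 and 0.84. Few cells held much of these counts. Over both chemistries, the top 10 Fos-positive cells of each gene held 66.7% of the Ms4a3, 58.3% of the Ctsg and 35.9% of the Mpo UMIs. G2/M genes were on the other side, 7 of 20 tested passing. Ccna2, cyclin A2, stood at 60.0, 23.4, 27.7 and 30.9 CPM in GEM-X Fos-positive cells, against 52.8, 48.9, 49.5 and 44.6 CPM in GEM-X Fos-zero cells. With v3.1 it stood at 86.4, 58.7, 30.1 and 51.4 CPM in Fos-positive cells, against 45.2, 40.5, 37.5 and 36.5 CPM in Fos-zero cells. The difference was -1.05 ± 0.22 (adjusted p = 0.00353), and it did not pass without the tdTomato-negative tube of mouse 1. Median depth of Fos-positive cells was 9823.5 UMIs with GEM-X and 9637 with v3.1, against 9126 and 7460 UMIs in Fos-zero cells, and the part of depth in these differences was not tested.

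Within the Fos-positive cells the tdTomato gates were compared with the mouse as a block, which leaves 1 residual degree of freedom. Of 10153 genes 20 were higher in tdTomato-positive cells (0.197%) and 10 lower (0.0985%). With sums kept apart by tube and chemistry 8 passed, with v3.1 alone 0 (425 at an unadjusted p under 0.05, in edgeR), and with DESeq2 1. With 3 tubes the mouse block leaves no residual degree of freedom, so fits that left out a tube had no block and take the lone tube of a gate to vary like the others, which changes the fit as well as the samples. Their counts were 10, 17 and 15 without the tdTomato-positive tube of mouse 1, the tdTomato-negative tube of mouse 1 and the tdTomato-positive tube of mouse 2. Mki67 stood at 597.6 and 420.1 CPM in tdTomato-positive Fos-positive cells of mice 1 and 2, against 311.8 and 367.3 CPM in tdTomato-negative ones (0.64 ± 0.09, edgeR adjusted p = 2.31e-09). With sums kept apart the log2 difference of Mki67 was 0.51 (adjusted p = 0.00497), and it did not pass when the tdTomato-positive or the tdTomato-negative tube of mouse 1 was left out (0.30 and 0.51). Cpa3, carboxypeptidase A3 of mast cells and their progenitors, stood at 25.9 and 28.8 CPM in tdTomato-positive cells, against 73.5 and 56.8 CPM in tdTomato-negative ones (-1.32 ± 0.24, adjusted p = 3.16e-05). It did not pass when either of those tubes was left out (-1.21 and -1.05).

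Wfdc17 stood at 47.9 and 21.1 CPM in tdTomato-positive Fos-positive cells, against 107.2 and 40.1 CPM in tdTomato-negative ones (-1.11 ± 0.21, edgeR adjusted p = 1.41e-04), and lay at -0.07 without the tdTomato-negative tube of mouse 1. Cmss1, Camk1d, Sp1 and Il31ra were higher in the tdTomato-positive cells, by 0.74, 0.55, 0.62 and 0.69, and with sums kept apart Cmss1 alone of these passed (0.33). Cmss1 stood at 1958 to 2125 CPM in GEM-X and at 185.1 to 220.5 CPM in v3.1 Fos-zero cells, and v3.1 gave 42.4% of the tdTomato-positive and 60.0% of the tdTomato-negative Fos-positive cells of mouse 1. Ccl4, Il1rapl2 and Car1 were lower, with log2 differences of -1.24, -0.93 and -2.73. Of the 178 Car1 UMIs 160 lay in 1 cell.

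The Fos-positive effect itself differed between the gates for 14 of 13580 genes, 9 higher (0.0663%) and 5 lower (0.0368%) in the tdTomato-positive gate. Cpa3 alone passed with sums kept apart by tube and chemistry, and the counts were 3, 8 and 28 without the tdTomato-positive tube of mouse 1, the tdTomato-negative tube of mouse 1 and the tdTomato-negative tube of mouse 2. Cpa3 stood at 25.9, 73.5, 28.8 and 56.8 CPM in Fos-positive cells, against 28.2, 26.4, 34.7 and 26.4 CPM in Fos-zero cells, so that the Fos-positive cells of both tdTomato-negative tubes were high. The difference of effects, tdTomato-positive minus tdTomato-negative, was -1.53 ± 0.24 (edgeR adjusted p = 2.38e-05), and -1.48 with sums kept apart (adjusted p = 0.0177); without the tdTomato-positive tube of mouse 1 it was -1.62 and did not pass (adjusted p = 0.0692). Over all 4 tubes Cpa3, alone of 3 tested mast cell and basophil genes, rose by 0.95 ± 0.14, and it lay at 0.51 without the tdTomato-negative tube of mouse 1. Of 326 Cpa3 UMIs in Fos-positive cells 179 lay in 10 cells, and with the state called at 5000 UMIs the change over all tubes was -0.33 (adjusted p = 0.788). Jun, Jund and Egr1 did not pass for a gate difference (edgeR adjusted p = 0.966, 0.998 and 0.97). On simulated counts this test recovered 6% of log2 changes of 0.5 and 53% of changes of 1. Not passing therefore does not show equal effects in the gates.

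Cells without a Mecom UMI allowed the same comparison outside the members. Their 91 Fos-positive cells, set against 5360 Fos-zero cells, had 31 genes risen (0.279% of 11116 tested) and 10 fallen (0.09%). Jun rose by 1.26 there, and the difference of effects, Mecom-positive minus Mecom-zero, was 0.08 ± 0.16 (edgeR adjusted p = 0.973). Jund lay at 0.70 in Mecom-zero cells (adjusted p = 0.162), Btg2 at -0.04 (adjusted p = 0.999) and Egr1, with 3 UMIs in the 91 cells, at -0.66 (adjusted p = 0.951). Their differences of effects, 0.07, 0.70 and 1.80, did not pass in edgeR (adjusted p = 0.983, 0.676 and 0.657). On simulated counts this difference test recovered 8% of log2 changes of 0.5 and 64% of changes of 1, so not passing does not show equal effects. Of 11687 genes 6 had a higher effect in Mecom-positive cells (0.0513%) and 10 a lower one (0.0856%), and the counts were 37, 6 and 4 without the tdTomato-negative tube of mouse 1, the tdTomato-positive tube of mouse 2 and the tdTomato-negative tube of mouse 2. Cd74 stood at 32.8, 24.5, 2062 and 1013 CPM in Mecom-zero Fos-positive cells, against 20.4, 25.4, 97.1 and 59.2 CPM in Mecom-zero Fos-zero cells, so that both tubes of mouse 2 were high. Of the 91 cells 10 held 98.9% of its UMIs, and its difference was -4.01 ± 0.44 (adjusted p = 1.77e-06). Ikzf2, an Ikaros-family factor, stood at 354.3, 315.6, 360.7 and 366.7 CPM in Mecom-positive Fos-positive cells, against 285.5, 295.0, 310.5 and 319.5 CPM in Mecom-positive Fos-zero cells. In Mecom-zero cells it stood at 141.2, 159.1, 146.0 and 195.9 CPM in Fos-positive and 190.4, 196.4, 237.6 and 246.9 CPM in Fos-zero cells. The Ikzf2 difference was 0.65 ± 0.12 (adjusted p = 0.00747), and it did not pass without the tdTomato-positive tube of mouse 1 or either tube of mouse 2.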

How the data were processed

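Bone marrow cells of 2 mice were measured as UMI counts in 2 droplet libraries. The deposited matrices hold raw counts per gene and barcode, with the hashtag counts in the same matrix; per the file headers they were written by Cell Ranger 8.0.1 and 7.1.0, whereas the submitters' processing notes name Cell Ranger 7.0.0 and mm10. Which matrix is GEM-X and which v3.1 was read from the matrix names and these versions. The libraries held 234563105 and 178214937 gene UMIs in 20511 and 17755 barcodes; 18294 and 14748 cells were kept. The hashtag rule left out 1846 and 1973 barcodes; doublets within a tube remain. No count came from a column without a sample.

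Counts were summed per tube and state. Tests used edgeR 4.0.16 (quasi-likelihood, TMM, filterByExpr, tube or mouse as a block) with DESeq2 1.42.0 as an alternative in R 4.3.3, and exact sign-flip tests and binomial intervals in Python 3.11.15 with scipy 1.17.1; the procedure was tested on simulated data. The block is a shared tube or animal, per the labels. GENCODE M21 positions matched 32158 of 32285 genes. Promoter windows came from RefSeq. The members, lists and tests were chosen with earlier results of these data known. Named genes were up to 12 risen and 12 fallen genes by size of change among those past an adjusted p of 0.05 with a mean of 10 CPM or more and 1 sign in all 4 tubes, leaving out histones and unnamed models; every tested AP-1 and immediate early gene; up to 4 genes per list; and up to 5 per direction of each difference and of the gates. Other genes, such as Top2a, were named after their values were seen. Alternatives changed the filter, scaling, tool, block, chemistry, thresholds, depth and the tubes used.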

Additional observations from a re-analysis of the deposited data

Results flagged for a closer look

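Difference tests singled out genes whose Fos-positive effect was not the same in both of the groups compared, given here as log2 differences of effects with an edgeR adjusted p under 0.05. Between Mecom-positive and Mecom-zero cells, the effect was higher in Mecom-positive cells for S100a8 (4.78), S100a9 (4.48), Rgcc (1.29), Ppp1r9a (0.942) and Ikzf2 (0.649). It was lower in Mecom-positive cells for Cd74 (-4.01), Cst3 (-1.42), Apoe (-1.10) and Psap (-1.03). When each tube was left out in turn, Cd74 passed in 4 of 4 fits, S100a9, Cst3, Apoe and Psap in 2, S100a8 and Ikzf2 in 1, and Rgcc and Ppp1r9a in 0. S100a8 and S100a9 had 3 UMIs each in Mecom-zero Fos-positive cells, and 10 of the Mecom-positive Fos-zero cells held 79.4% and 81.5% of theirs.

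Between the chemistries, the effect was higher with GEM-X for Ms4a3 (2.04), Simc1 (1.03), Sdf2l1 (0.851), Ctsg (0.842) and Mpo (0.663). It was lower with GEM-X for Ccdc18 (-1.14), Ccna2 (-1.05), Efcab11 (-0.993), Kif14 (-0.974) and Dntt (-0.967). Mpo passed in 4 of 4 fits that left out a tube, Ms4a3, Ccna2 and Dntt in 3, Ctsg, Ccdc18 and Efcab11 in 2, Sdf2l1 and Kif14 in 1, and Simc1 in 0.

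Between the tdTomato gates, the effect was higher in tdTomato-positive cells for S100a8 (3.64), Cmss1 (0.661), Mki67 (0.536), Camk1d (0.499) and Lars2 (0.434). It was lower in tdTomato-positive cells for Slc25a21 (-4.57), Cpa3 (-1.53), Wfdc17 (-1.04) and Malat1 (-0.169). Cmss1 passed in 4 of 4 fits that left out a tube, Cpa3 and Camk1d in 3, Mki67, Wfdc17, Lars2 and Slc25a21 in 2, and S100a8 and Malat1 in 1. Those fits summed over both chemistries, between which the level of Cmss1 differs as given above. With sums kept apart by tube and chemistry Cpa3 alone of these genes passed. Of the 125 Slc25a21 UMIs in Fos-positive cells 112 lay in 1 cell.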

How the results depend on the processing

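The number of genes past the threshold between Fos-positive and Fos-zero cells, 61 in the reported test, was 34 with DESeq2, 113 with no filter on low counts, 3 with no replicate block (931 at an unadjusted p under 0.05), 36 with GEM-X alone, 101 with v3.1 alone, 31 with sums per tube and chemistry, 176 with sums per mouse, 25 with matched Fos-zero cells, 359 with the state called after thinning, 3 with thinning and matching, 204 with 1 or more and 108 with 3 or more Fos and Fosb UMIs, and 19 to 107 when a tube or mouse was left out. The tdTomato gates within Fos-positive cells gave 30, against 1 with DESeq2, 1 with no replicate block, 11 with GEM-X alone, 0 with v3.1 alone, 8 with sums per tube and chemistry, and 10 to 24 when a tube was left out, in fits without the block. The gate difference gave 14, against 3 with DESeq2 (165 at an unadjusted p under 0.05), 0 with no replicate block (678 in edgeR at an unadjusted p under 0.05), 8 with v3.1 alone, 1 with sums per tube and chemistry, and 3 to 28 when a tube was left out. The Mecom difference gave 16, against 1 with DESeq2 (450 at an unadjusted p under 0.05), 88 with no filter, 0 with no replicate block (775 in edgeR at an unadjusted p under 0.05), 9 with GEM-X alone, and 4 to 37 when a tube was left out. The chemistry difference, added after the data were seen, gave 53, against 96 with no filter, 14 with DESeq2, and 22 to 52 when a tube was left out. The gate difference in share, 0.69 percentage points, was 2.27 with 1 or more and 0.20 with 3 or more Fos and Fosb UMIs, 1.10 with GEM-X alone, 0.19 with v3.1 alone and 0.21 to 1.16 by mouse; the chemistry difference, -0.39, was -1.53 with 1 or more UMIs and -0.64 to -0.19 when a tube was left out.

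Signs turned for Cd74 (0.31) and Klf3 (0.32) with thinning and matching. mt-Nd5 turned to 0.0467 with GEM-X alone, 0.00918 with matching and 0.0112 with both. Birc5 turned to -0.17 with GEM-X alone and -0.94 after thinning, and Cpa3 to -0.33 after thinning. With 1 or more Fos and Fosb UMIs, Prtn3 lay at 0.17, Mpo at 0.16 and Ngp at 0.14, and with GEM-X alone Mpo lay at 0.29. Car1 turned to -2.52 with v3.1 alone, -1.89 with a stricter hashtag rule, and -2.65 and -1.91 without mouse 1 or its tdTomato-negative tube, and lay at 1.23 without mouse 2. S100a8 lay at 0.06 and 0.29 without mouse 1 and without that tube, and at -2.5 without mouse 2. With v3.1 alone, Cmss1 between the gates lay at -0.00096 and the gate difference of Lars2 at -0.25. The cause of these changes was not tested. Over single genes, 1088 values kept direction and side of the threshold, 406 no longer passed, 34 newly passed, the 20 above changed sign and 125 changed sign without passing in either fit. Low counts in the 468 Fos-positive cells limit genes under about 10 CPM.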
